A study of Mus musculus with 16 samples.

Results

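Smooth muscle contractile genes were followed as a set of 10 genes (Acta2, Actg2, Myh11, Tagln, Cnn1, Des, Smtn, Synm, Lmod1 and Mylk), chosen by name from what their proteins do in smooth muscle. All 10 had at least 1 probe on the arrays, out of 16593 named genes measured. The set was read in mouse prostate and in prostate carcinomas of TRAMP mice. These mice carry the SV40 T antigen under the probasin promoter, which is active in prostate epithelial cells and not in smooth muscle.

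RNA had been measured on 16 one-colour Illumina mouse bead arrays. Of these, 3 held neuroendocrine carcinomas (NECa) of TRAMP mice given AGN, 3 held NECa of TRAMP mice given vehicle, and 2 held whole prostate labelled wild type, from mice of 24 to 28 weeks. The remaining 8 held dorsal-lateral prostate (DLP), with 1 array each at 16 and at 28 weeks of age for TRAMP mice given D/DA, TRAMP mice given AGN, TRAMP mice given vehicle, and wild-type mice. AGN is an extract of the root of Angelica gigas Nakai, and D/DA is a mixture of its pyranocoumarins decursin and decursinol angelate. The strain field read C57BL/6 for wild-type DLP and TRAMP for every other array, including the 2 wild-type whole prostates. The study text named 11 mice at 16 weeks and 13 at 28 weeks behind D/DA DLP, and 10 and 14 behind AGN DLP. The sources used here do not give whether RNA was pooled, the doses, the duration of treatment or the ages of the carcinoma mice. Nothing in the labels says which arrays of a group came from separate animals, so the p-values measure only the spread between these arrays.

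Prostate glands are wrapped in sheaths of smooth muscle, which contract to expel secretion and exchange signals with the epithelium. In such cells, myosin filaments pull on filaments of smooth muscle actin once a calcium-dependent kinase has phosphorylated the myosin light chain, and intermediate filaments tie the contractile apparatus to the cell's dense bodies. Transcription of many of these genes is driven by serum response factor with its coactivator myocardin, through a sequence element called the CArG box.

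The genes have 4 kinds of role. Acta2 and Actg2 encode the smooth muscle actins and Lmod1 encodes leiomodin, which nucleates actin filaments. Myh11 encodes smooth muscle myosin heavy chain and Mylk the myosin light chain kinase. Tagln, Cnn1 and Smtn encode transgelin, calponin and smoothelin, which bind actin filaments. Des and Synm encode the intermediate filament proteins desmin and synemin, which skeletal muscle also makes.

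Of the 10 genes, 7 had an entry among the RefSeq promoters of assembly GRCm38.p6, each window holding 250 bases before the transcription start and 50 after it. The windows were searched on both strands for a CArG box with at most 1 G or C among its 6 core bases, and for the MCAT element CATTCC, which binds factors of the TEAD family. The promoters of Acta2, Mylk and Lmod1 are shown as examples of windows that hold a match. Acta2 has both kinds, and Mylk and Lmod1 the MCAT element on opposite strands. The windows of Smtn and Synm also hold a match and are not shown, and all 10 genes fell in the carcinomas below. Capitals mark the matches, and each sequence is written along the gene's own strand. The Mylk window belongs to a start inside the gene, which itself spans 34745199 to 35002436.
Acta2, chr19:34255324-34255623, minus strand: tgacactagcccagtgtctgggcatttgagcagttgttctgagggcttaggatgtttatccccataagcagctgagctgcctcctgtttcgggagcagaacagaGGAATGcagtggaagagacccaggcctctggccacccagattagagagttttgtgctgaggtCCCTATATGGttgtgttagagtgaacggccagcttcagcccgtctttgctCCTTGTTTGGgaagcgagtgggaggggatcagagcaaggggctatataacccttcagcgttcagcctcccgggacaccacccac
Mylk, chr16:34784700-34784999, plus strand: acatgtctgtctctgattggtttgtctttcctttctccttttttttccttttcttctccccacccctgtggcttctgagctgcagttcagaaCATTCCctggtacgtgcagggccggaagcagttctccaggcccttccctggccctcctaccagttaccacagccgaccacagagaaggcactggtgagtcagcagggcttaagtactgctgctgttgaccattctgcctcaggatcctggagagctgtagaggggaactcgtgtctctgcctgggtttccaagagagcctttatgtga
Lmod1, chr1:135324563-135324862, plus strand: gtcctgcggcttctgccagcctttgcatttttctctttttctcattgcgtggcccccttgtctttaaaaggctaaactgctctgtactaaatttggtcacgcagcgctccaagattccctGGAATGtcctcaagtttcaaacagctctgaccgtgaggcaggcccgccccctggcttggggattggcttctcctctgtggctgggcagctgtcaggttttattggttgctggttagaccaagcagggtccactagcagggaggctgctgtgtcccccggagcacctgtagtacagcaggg

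The Acta2 window held a CArG-like match that starts 84 bases before the transcription start and another that starts 34 bases before it. Synm held 1 such match, 239 bases before its start. Such matches were present in 9.98% of the 32851 promoters of the same length, and a CArG box with a core of A and T only was present in 0 of the 7 windows and in 1.63% of all of them. The MCAT element lay in 4 of the 7 windows, those of Acta2, Smtn, Lmod1 and Mylk, against 14.7% of all promoters. Acta2 was the gene whose window held both kinds of match, which 1.62% of promoters did. A match describes the letters of these windows and is not a measurement of binding.

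Values are linear normalized probe intensities as deposited, in which the median of an array lay between 151 and 166, so a gene near 150 had reached the level of most probes on the array. Fits were made with limma on log2 intensities, with p-values adjusted by Benjamini-Hochberg over all 25697 probes, and a gene is said to rise or fall where the adjusted p was under 0.05. Each gene is described by its probe with the highest mean over the 16 arrays, and levels of different probes are not set against each other.

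The contractile genes were far lower in the carcinomas than in the normal gland. All 10 genes fell in AGN NECa and in vehicle NECa relative to wild-type whole prostate. The log2 difference ranged from -4.72 for Mylk to -0.97 for Cnn1 in AGN NECa and from -4.91 for Mylk to -1.05 for Cnn1 in vehicle NECa. For each gene the highest carcinoma array lay below the lower wild-type prostate.

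Calls were common in these comparisons: 31.0% of all probes were called in AGN NECa against wild-type prostate, 16.5% as lower. In vehicle NECa against wild-type prostate 28.7% were called, 16.3% as lower. Groups that did not overlap, with the carcinomas lower, were found for 24.0% of all probes in AGN NECa and for 24.4% in vehicle NECa. The median of the 10 genes was -3.46 in AGN NECa and -3.27 in vehicle NECa, against medians over all probes of 0.04 and -0.00. Both comparisons use the same 2 wild-type prostates.

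**Figure D1:**
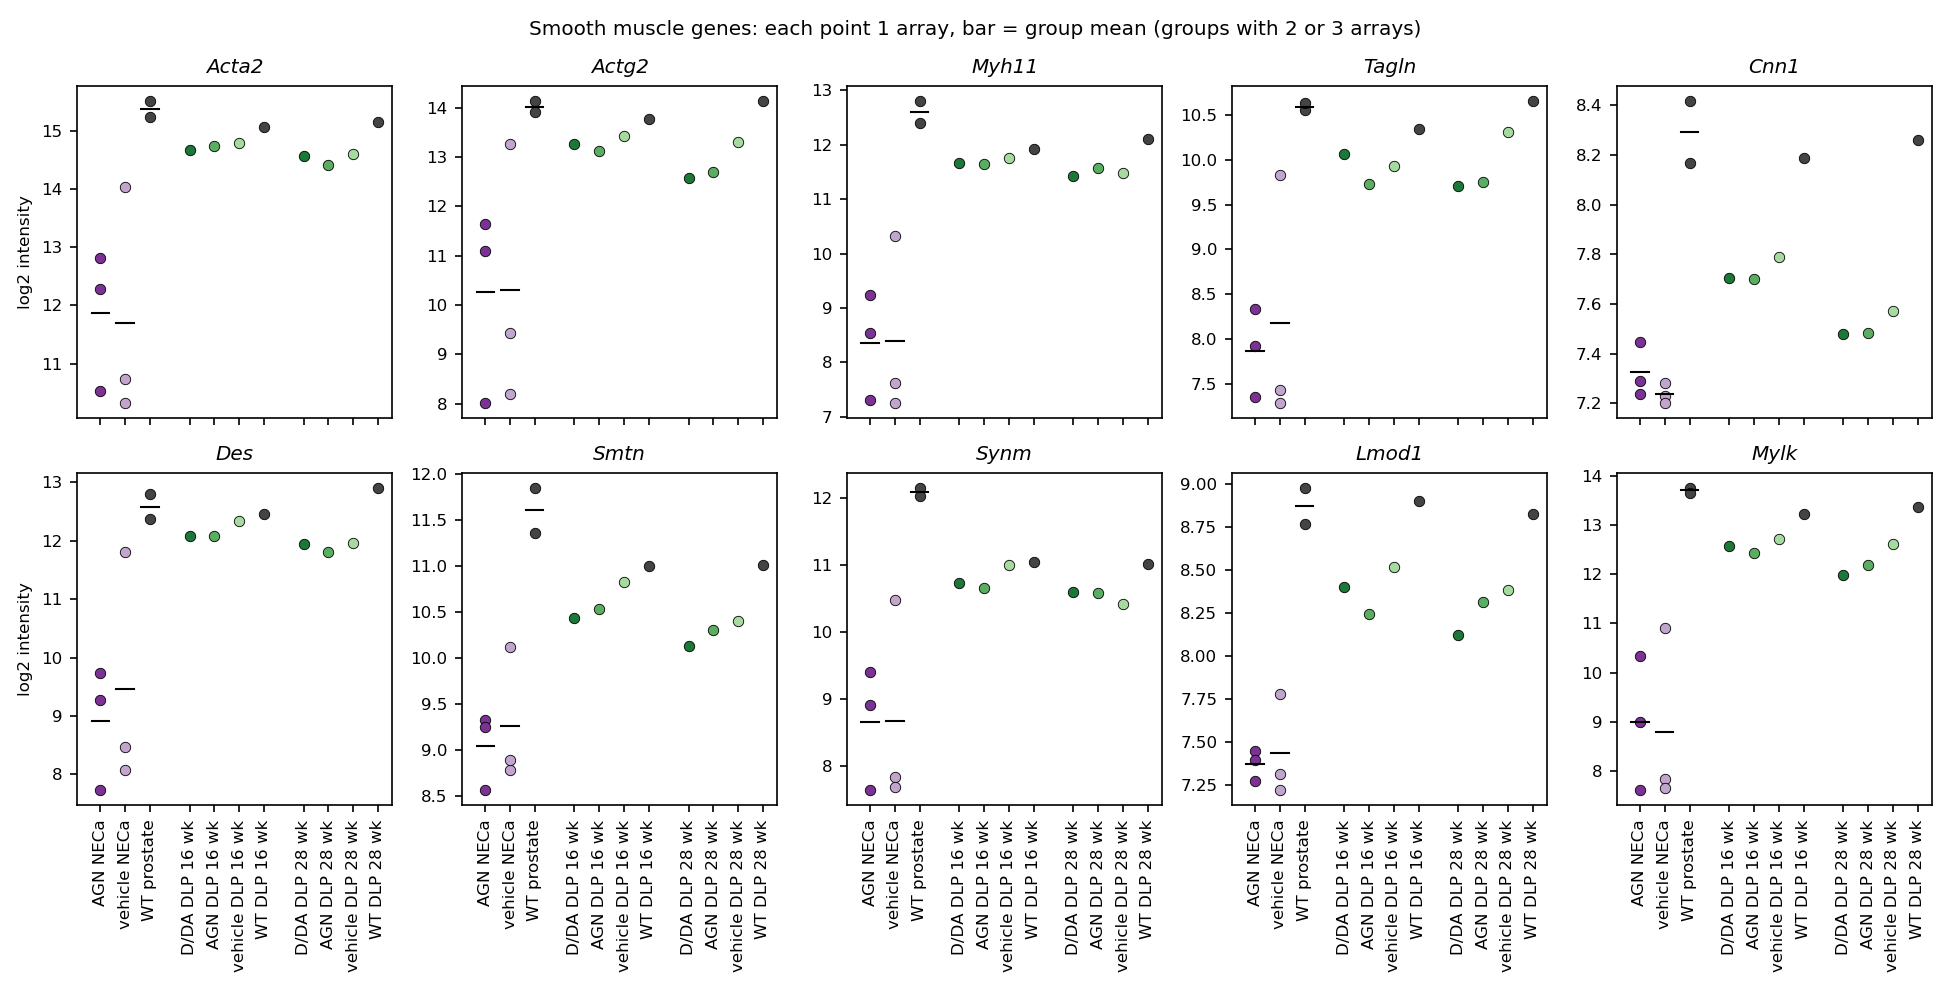
Intensity of the main probe of each of the 10 smooth muscle genes on the 16 arrays (log axis), by group, with 1 point per array. The carcinoma points lie below those of wild-type whole prostate for every gene, and the first vehicle carcinoma is the highest of the 6 carcinomas for 9 of them.

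Among the actin genes, Acta2 had 4976, 7188 and 1482 in the 3 AGN NECa, 16782, 1715 and 1280.4 in the 3 vehicle NECa, and 46484 and 38654 in the 2 wild-type prostates. Its log2 difference was -3.50 ± 0.92 in AGN NECa (SE, n = 3 against 2; limma adjusted p = 0.0119) and -3.67 ± 0.92 in vehicle NECa (limma adjusted p = 0.00962). The other 3 Acta2 probes also fell in both groups, with log2 differences between -3.85 and -3.25 in AGN NECa and between -4.01 and -3.34 in vehicle NECa.

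Actg2, the actin first known from enteric smooth muscle, had 3221, 2198 and 258 in AGN NECa, 9802, 696 and 292 in vehicle NECa, and 15508 and 17934 in wild-type prostate. The carcinomas therefore spread over a 38.0-fold range, from 258 to 9802, while the wild-type prostates differed by 1.16-fold. Its limma adjusted p was 0.0435 in AGN NECa and 0.0486 in vehicle NECa, the highest of the set. The call was lost under 11 of 14 alternatives in each comparison, and in vehicle NECa the limma adjusted p was 0.141 without wild-type prostate 1 and 0.164 without wild-type prostate 2. Over the alternatives the limma adjusted p of Actg2 ranged from 0.00405 to 0.383 in AGN NECa and from 0.00177 to 0.427 in vehicle NECa.

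Lmod1 had 174, 168 and 154 in AGN NECa, 219, 159 and 149 in vehicle NECa, and 436 and 504 in wild-type prostate. It was thus below the upper quartile of the array in all 6 carcinomas, and its log2 differences of -1.50 ± 0.15 for AGN NECa and -1.44 ± 0.15 for vehicle NECa (limma adjusted p = 1.57e-05 and 2.32e-05) are compressed by that level.

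The motor genes showed the deepest differences. Mylk had 514, 1299 and 197 in AGN NECa, 1917, 228 and 201 in vehicle NECa, and 13815 and 12923 in wild-type prostate. Its log2 difference was -4.72 ± 0.89 in AGN NECa and -4.91 ± 0.89 in vehicle NECa (limma adjusted p = 0.00151 and 0.00124), and Mylk probe 2 gave -4.09 and -4.33.

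Myh11, regarded as the most selective of these genes for mature smooth muscle, had 370.3, 604 and 159.5 in AGN NECa, 1287, 197 and 152 in vehicle NECa, and 7147 and 5398 in wild-type prostate. The log2 difference was -4.24 ± 0.77 in AGN NECa and -4.20 ± 0.77 in vehicle NECa (limma adjusted p = 0.00109 and 0.00127). In 3 carcinomas, AGN 3, vehicle 2 and vehicle 3, Myh11 stood between 152 and 197, near the array median.

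Of the actin-binding genes, Tagln had 322, 242 and 165 in AGN NECa, 909, 174 and 156 in vehicle NECa, and 1496 and 1586 in wild-type prostate, with log2 differences of -2.72 ± 0.59 and -2.40 ± 0.59 (limma adjusted p = 0.00391 and 0.00897). Cnn1 had 151, 175 and 156 in AGN NECa, 156, 149.9 and 147 in vehicle NECa, and 342 and 287 in wild-type prostate. It was at or near the array median in all 6 carcinomas, the first vehicle carcinoma included, so its log2 differences of -0.97 ± 0.10 and -1.05 ± 0.10 are compressed by that level. Smtn had 643, 609 and 380.1 in AGN NECa, 1109.6, 443 and 474 in vehicle NECa, and 3686 and 2632 in wild-type prostate. Smtn stayed above the array's upper quartile, which lay between 312 and 337, in all 6 carcinomas, and its log2 differences were -2.55 ± 0.37 and -2.34 ± 0.37 (limma adjusted p = 0.000211 and 0.000438).

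Of the intermediate filament genes, Des had 852, 622 and 213 in AGN NECa, 3602, 355 and 271 in vehicle NECa, and 5321 and 7115 in wild-type prostate, with log2 differences of -3.67 ± 0.90 and -3.13 ± 0.90 (limma adjusted p = 0.00825 and 0.0215). The Des call in vehicle NECa was lost with a limma adjusted p of 0.0664 without wild-type prostate 1, 0.108 without wild-type prostate 2, 0.0744 without vehicle 2 and 0.0551 without vehicle 3, within a range of 0.000106 to 0.268 over the alternatives. In AGN NECa it was lost without wild-type prostate 2 (limma adjusted p = 0.0526, range 0.00088 to 0.167). Acta2 lost its call in both groups without wild-type prostate 1, with a limma adjusted p of 0.0648 (AGN NECa) and 0.0564 (vehicle NECa), within ranges over the alternatives of 0.000346 to 0.305 and 9.21e-05 to 0.307. Synm had 480.3, 677 and 199.6 in AGN NECa, 1427, 229 and 206 in vehicle NECa, and 4534 and 4155 in wild-type prostate, with log2 differences of -3.43 ± 0.71 and -3.41 ± 0.71 (limma adjusted p = 0.00285 and 0.00318). Synm probe 3, which lay between 152 and 181 on all of these arrays, missed the threshold in vehicle NECa (limma adjusted p = 0.0579).

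**Figure D2:**
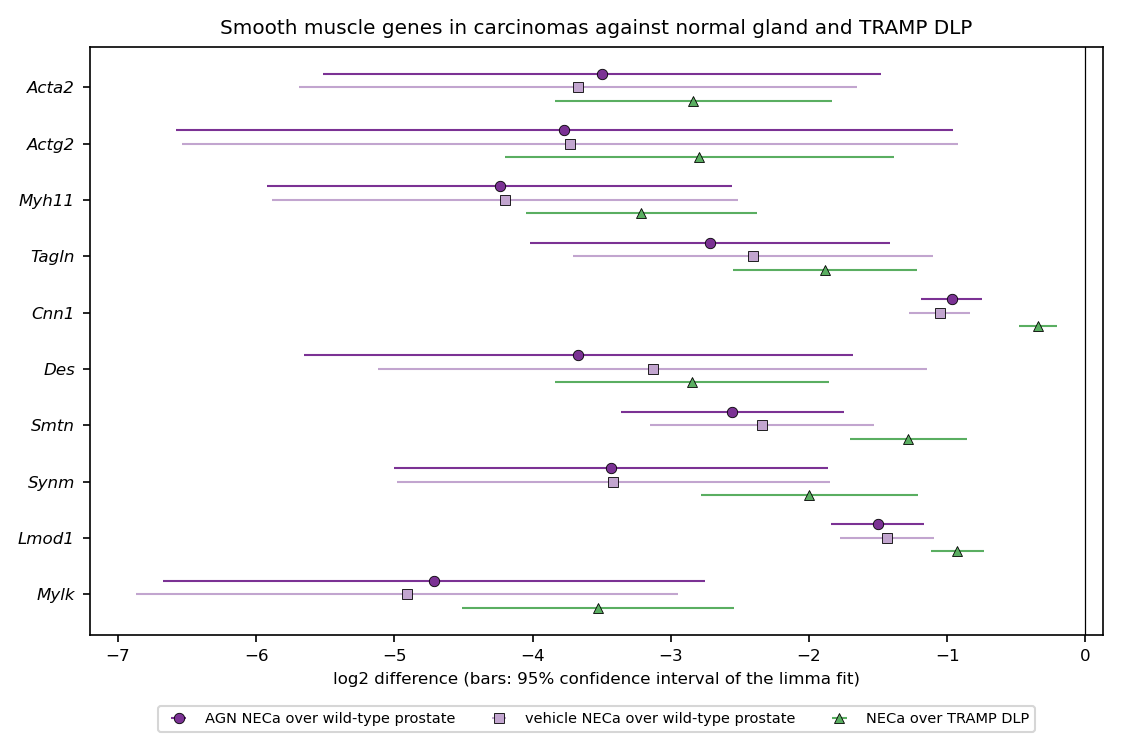
Log2 difference of each gene in AGN NECa and in vehicle NECa against wild-type whole prostate, and in all NECa against TRAMP DLP, with 95% confidence intervals from the limma fits. The intervals are widest for Actg2 and narrowest for Cnn1 and Lmod1, and all lie below 0.

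In bulk tissue, fewer smooth muscle cells and less RNA per cell cannot be told apart. Skeletal muscle also moved with the comparison. The mean log2 level of 20 skeletal muscle markers was 7.35 to 7.48 in AGN NECa and 7.32 to 7.38 in vehicle NECa, against 10.96 and 8.56 in the wild-type prostates numbered 1 and 2, and 15 of the 20 fell in each carcinoma group. The mean log2 level of the contractile genes was 12.01 and 11.94 in the same order. Des, Actg2, Tagln and Lmod1 were higher in wild-type prostate 2, and Synm, Myh11, Smtn, Acta2, Cnn1 and Mylk in wild-type prostate 1. With the skeletal muscle level as a covariate the log2 differences stayed below 0 for all 10 genes, with medians of -3.11 for AGN NECa and -3.18 for vehicle NECa, and 2 genes, Cnn1 and Lmod1, kept their call in each comparison; both are genes near the array median in the carcinomas, with little spread there. The carcinomas all lay below both wild-type prostates on this covariate, so the fit cannot separate skeletal muscle content from group. Luminal epithelial markers also fell, 5 of 6 in each carcinoma group, and basal or myoepithelial markers, whose cells share some actin-binding genes, fell for 7 of 8. Seminal vesicle markers fell for 6 of 7 in each group, with a median log2 difference of -7.083 for AGN NECa and -7.155 for vehicle NECa. Their part in the result was not tested.

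The first vehicle carcinoma stood apart from the other 5. The mean log2 level of the 10 genes was 10.58 there, against 7.94 to 9.42 in the other NECa. On the same array the mean log2 level of 14 fibroblast markers was 9.21, against 7.69 to 8.43 in the other NECa, that of 5 macrophage markers 9.34, against 8.11 to 8.46, and that of 8 basal or myoepithelial markers 8.37, against 7.51 to 7.66. This array was also the highest NECa for 10 pericyte markers, at 7.98 against 7.58 to 7.77. The same held for 11 endothelial markers, at 8.49 against 7.93 to 8.29. The skeletal muscle markers, at 7.38, did not set it apart. Without this array all 10 genes fell in vehicle NECa, with a median log2 difference of -4.31. Without it and AGN 2, the next highest, all 10 fell in both groups.

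**Figure D3:**
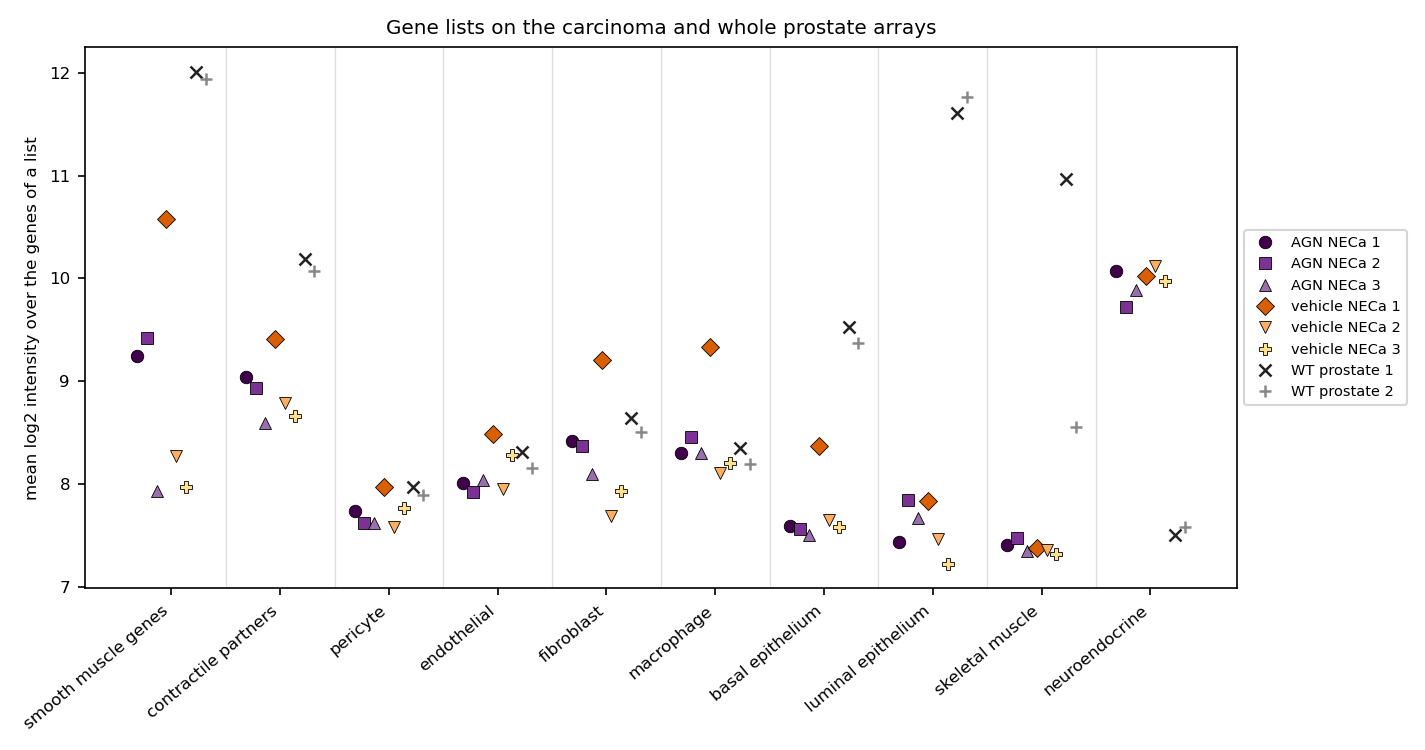
Mean log2 intensity of the contractile genes and of marker lists for other cell types on the carcinoma and whole prostate arrays, with 1 point per array. The first vehicle carcinoma is the highest NECa for the contractile genes and their partners, pericytes, endothelium, fibroblasts, macrophages and basal or myoepithelial cells. The 2 wild-type prostates differ most in skeletal muscle.

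At the other end, AGN 3 and vehicle 3 each had 4 of the 10 genes below the array median and 8 below the array's upper quartile. Vehicle 2 had 2 and 6, AGN 1 had 1 and 2, and AGN 2 had 0 and 3. Of 10 pericyte markers, whose cells share Acta2 and other contractile genes, 0 rose and 3 fell in AGN NECa, with a median log2 difference of -0.31, and 2 rose and 2 fell in vehicle NECa, with a median of -0.14. The share of probes called in these comparisons was 31.0% and 28.7%. Of 11 endothelial markers, 2 fell in AGN NECa and 0 were called in vehicle NECa.

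Other genes of the contractile apparatus followed the set. Of 25 partner genes with a probe, 17 fell and 1 rose in each carcinoma group, and their median log2 difference was -1.33 for AGN NECa and -1.14 for vehicle NECa. Of all probes, 31.0% were called in AGN NECa, 16.5% as lower, and 28.7% in vehicle NECa, 16.3% as lower. Tpm2, a muscle tropomyosin, had 587, 933 and 215 in AGN NECa, 1895, 232 and 179 in vehicle NECa, and 6978 and 6017 in wild-type prostate, with log2 differences of -3.72 ± 0.85 and -3.92 ± 0.85 (limma adjusted p = 0.00501 and 0.00393). Tpm1, also a tropomyosin, had log2 differences of -2.97 and -2.80, and the Z-disc protein gene Pdlim3 had -3.33 and -3.05. Csrp1, a LIM protein of the actin cytoskeleton, was among the largest in AGN NECa (-2.99 ± 0.35), and Pgm5, which encodes the adhesion protein aciculin, in vehicle NECa (-2.72 ± 0.25).

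Of 19 genes of calcium and cGMP signalling, 6 fell and 1 rose in AGN NECa, and 7 fell and 1 rose in vehicle NECa, where 31.0% and 28.7% of all probes were called. Their median log2 difference was -0.01 for AGN NECa and -0.08 for vehicle NECa. Mrvi1, the IP3 receptor partner through which cGMP-dependent kinase relaxes smooth muscle, had log2 differences of -2.39 ± 0.33 and -2.31 ± 0.33 (limma adjusted p = 0.000167 and 0.000231). The subunits of soluble guanylate cyclase went apart: Gucy1a1 fell, with -1.19 and -0.84, and Gucy1b1 rose, with 0.69 and 0.79 (312, 223 and 256 in AGN NECa, 252, 310.0 and 281 in vehicle NECa, and 144 and 182 in wild-type prostate). Of the 3 Gucy1a1 probes, 1 was called in each comparison and 1 had the opposite sign. Atp2a2, the calcium pump of the sarcoplasmic reticulum, fell in AGN NECa (-0.82 ± 0.15), and Casq2, a calcium store protein, fell in vehicle NECa (-0.59 ± 0.08).

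Among 9 receptor genes, 3 fell and 0 rose in each group, a share near the 31.0% and 28.7% of all probes called. P2rx1, the ATP-gated channel of genitourinary smooth muscle, had log2 differences of -1.70 ± 0.38 for AGN NECa and -1.59 ± 0.38 for vehicle NECa (limma adjusted p = 0.00439 and 0.00727). Chrm3, the muscarinic receptor that triggers contraction, had -0.56 and -0.64. The third was the angiotensin receptor gene Agtr1a in AGN NECa (-0.93 ± 0.26) and the natriuretic peptide clearance receptor gene Npr3 in vehicle NECa (-0.24 ± 0.07).

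Of 21 genes for transcription factors of the smooth muscle programme, 5 fell and 2 rose in AGN NECa, and 4 fell and 0 rose in vehicle NECa, at or below the share over all probes (31.0% and 28.7%). Myocd, which encodes myocardin, had 178, 182 and 162 in AGN NECa, 226, 164 and 144 in vehicle NECa, and 746 and 596 in wild-type prostate. Its log2 differences were -1.94 ± 0.18 and -1.93 ± 0.18 (limma adjusted p = 5.92e-06 and 6.42e-06) on the main probe, while 1 of its 3 probes had the opposite sign and the main probe alone was called. The homeobox gene Meis1 and the TGF-beta mediator Smad3 fell in both groups, with -1.86 and -1.30 in AGN NECa and -1.34 and -1.28 in vehicle NECa. Mef2c, a muscle transcription factor, fell in AGN NECa (-1.12 ± 0.37), where its 2 wild-type values were 754 and 275. With the skeletal muscle level as a covariate, which cannot be separated from group here, the Mef2c difference turned to 0.31 (limma adjusted p = 0.728). Tcf21, a factor of stromal fibroblasts, fell in vehicle NECa (-0.94 ± 0.23).

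AGN and vehicle carcinomas were then compared with each other on the 6 NECa arrays. None of the 10 genes passed the test, with adjusted p between 0.885 and 0.995 and 0 genes at an unadjusted p under 0.05, where limma called 0.0389% of all probes. Log2 differences ranged from -0.54 for Des to 0.19 for Mylk, with a median of -0.04. The intervals do not exclude large differences either way: the interval of Actg2 ran from -2.64 to 2.56 and that of Acta2 from -1.70 to 2.04. The direction rested on single arrays, since the median of the 10 genes was 0.76 without vehicle 1 and 0.29 without AGN 3. A fit with estimated array weights is not used for the carcinomas, because the estimate of the weights did not converge and gave vehicle 3 a weight of 97.9, against 0.134 to 1.04 for the other 5 arrays. No gene of the partner, calcium, receptor or transcription factor lists passed in the main comparison. Those closest were Vim, the mesenchymal intermediate filament gene (-0.83 ± 0.22), Klf5 (-1.09 ± 0.48), Agtr1a (-0.41 ± 0.19) and Atp2a2 (-0.23 ± 0.14), with limma adjusted p of 0.295, 0.795, 0.85 and 0.885.

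Against TRAMP DLP, the glands in which these mice develop epithelial lesions, all 10 genes fell in NECa as well. In this comparison 77.9% of all probes were called, 19.6% as lower, and the median of all probes was 0.11 higher in NECa. The median of the 10 genes was -2.40, from -3.53 ± 0.47 for Mylk to -0.34 ± 0.06 for Cnn1 (limma adjusted p = 4.49e-06 and 0.00025). For 6 of the genes the highest NECa lay below the lowest TRAMP DLP, against 14.7% of all probes. The 4 that overlapped, Actg2, Tagln, Des and Synm, did so through the first vehicle carcinoma: Actg2, for example, ranged from 258 to 9802 in NECa and from 6141 to 11086 in TRAMP DLP. Partner genes fell for 16 of 25 and rose for 4. Endothelial markers rose for 8 of 11 with 0 lower, where 14989 of all 25697 probes were called higher. With quantile normalization 6488 probes were called higher, so the endothelial count is not read as a result about endothelium.

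Within the DLP arrays the contractile genes were lower in TRAMP mice than in wild-type mice at both ages, by far less than in the carcinomas. Each treatment and age was 1 array, so treatment and age were fitted additively over the 8 arrays. In vehicle DLP against wild-type DLP all 10 genes were below 0, with a median log2 difference of -0.41 against -0.07 over all probes, but 1 gene passed the test, where 7.5% of all probes were called, 4.48% as lower. That gene was Cnn1, with 221 at 16 weeks and 190.2 at 28 weeks in vehicle DLP, against 292 and 307 in wild-type DLP (-0.55 ± 0.10, limma adjusted p = 0.0127). Lmod1, Mylk and Acta2 came next, with -0.41 ± 0.11, -0.62 ± 0.17 and -0.42 ± 0.13 and limma adjusted p of 0.052, 0.0613 and 0.0802. The Acta2 value turned to 0.03 with quantile normalization, and Acta2 probes 3 and 4 had 0.36 and 0.24 in this comparison.

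The count depended on single arrays. Without the wild-type DLP at 16 weeks 7 genes fell, without the vehicle DLP at either age 0 did, and without the D/DA DLP at either age 2 did, Cnn1 and Mylk. Skeletal muscle markers differed between these arrays in opposite directions: their mean log2 level was 10.57 in vehicle and 8.21 in wild-type DLP at 16 weeks, and 8.98 in vehicle and 10.67 in wild-type DLP at 28 weeks. With the skeletal muscle level as a covariate 8 genes fell.

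A comparison chosen after these values were seen set the 6 TRAMP DLP of all 3 treatments against the 2 wild-type DLP, with age in the fit. In it 8 of the 10 genes fell, where 12.5% of all probes were called, 7.9% as lower, and the median of the set was -0.58 against -0.04 over all probes. Actg2 had the largest difference, -0.88 ± 0.18 (limma adjusted p = 0.0139), with 9888, 8918 and 11086 in D/DA, AGN and vehicle DLP at 16 weeks against 13923 in wild-type DLP. At 28 weeks the same gene had 6141, 6633 and 10097 against 17992 in wild-type DLP.

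Mylk had 6092, 5522 and 6770.1 in D/DA, AGN and vehicle DLP at 16 weeks against 9581 in wild-type DLP, and 4066, 4637 and 6306 against 10568 at 28 weeks (-0.88 ± 0.14, limma adjusted p = 0.0048). Cnn1 had 209, 208 and 221 in D/DA, AGN and vehicle DLP at 16 weeks against 292 in wild-type DLP, and 178, 179 and 190.2 against 307 at 28 weeks (-0.60 ± 0.08, limma adjusted p = 0.00182). For every gene of the set, not only these, each TRAMP array was lower than either wild-type array on the main probe. The margin was small for Synm (2036 against 2063) and Tagln (1263 against 1299). The share of all probes that separate in this way was not computed, so this separation is not read as a result about the set.

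Des, Tagln, Smtn, Lmod1 and Acta2 also fell, with log2 differences of -0.65 ± 0.16, -0.58 ± 0.15, -0.57 ± 0.11, -0.53 ± 0.09 and -0.48 ± 0.10. Myh11 (-0.42 ± 0.12) and Synm (-0.37 ± 0.13) missed the threshold, with limma adjusted p of 0.0561 and 0.0968. The wild-type DLP at 28 weeks carried part of the count: 3 genes, Cnn1, Lmod1 and Mylk, fell without it, 4 fell without the AGN DLP at 28 weeks and 5 without the AGN DLP at 16 weeks. In a fit that took its spread from all 16 arrays, carcinomas included, 2 genes, Cnn1 and Lmod1, fell.

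**Figure D4:**
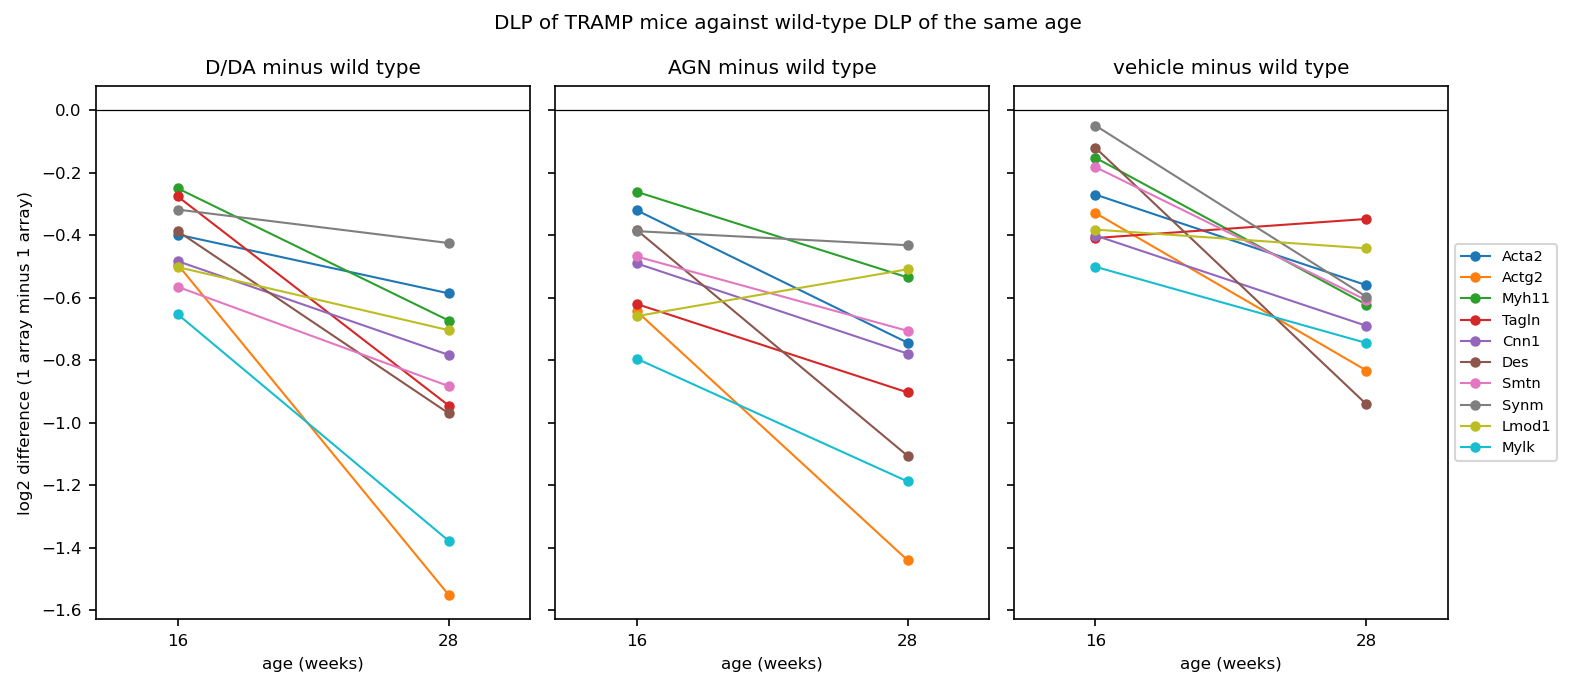
Log2 difference of each gene between 1 TRAMP DLP array and the wild-type DLP array of the same age, at 16 and 28 weeks, for D/DA, AGN and vehicle. Every point lies below 0, and Actg2, Mylk and Des have the largest differences at 28 weeks.

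Taken age by age, with 1 array against 1 array and no test, all 10 genes were below 0 for each treatment. At 16 weeks the median was -0.44 for D/DA, -0.48 for AGN and -0.30 for vehicle, where 62.2%, 67.0% and 72.8% of all probes were below 0. At 28 weeks it was -0.83 for D/DA, -0.76 for AGN and -0.62 for vehicle, where 50.2%, 61.3% and 62.3% of all probes were below 0. The 3 differences at an age share the wild-type array.

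Several genes with more than 1 probe did not give 1 answer in DLP. Acta2 probes 1 and 2, numbered by mean level, both fell in TRAMP DLP (-0.48 and -0.58), while probes 3 and 4 stood at -0.00 ± 0.14 and -0.04 ± 0.18. At 16 weeks probe 3 had 5635, 5624 and 8419.7 in D/DA, AGN and vehicle DLP against 5271 in wild-type DLP, and at 28 weeks 6294, 6289 and 9041 against 8723. Probe 4 was likewise higher in vehicle than in wild-type DLP at 16 weeks, with a log2 difference of 0.70, where probe 1 had -0.27.

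Across the 8 DLP arrays, which share tissue, platform and normalization, Acta2 probes 1 and 2 had a Pearson r of 0.88 and probes 3 and 4 had 0.92, while probe 1 had 0.11 with probe 3 and 0.27 with probe 4. In the 6 NECa every pair of Acta2 probes had an r of 0.99 or more. Smtn showed the same kind of difference: Smtn probe 2 fell in TRAMP DLP (-0.61 ± 0.12, limma adjusted p = 0.0132), as did probe 1, and probe 3 stood at -0.03 ± 0.14. Mylk probe 2 missed the threshold (-0.64 ± 0.20, limma adjusted p = 0.0662).

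**Figure D5:**
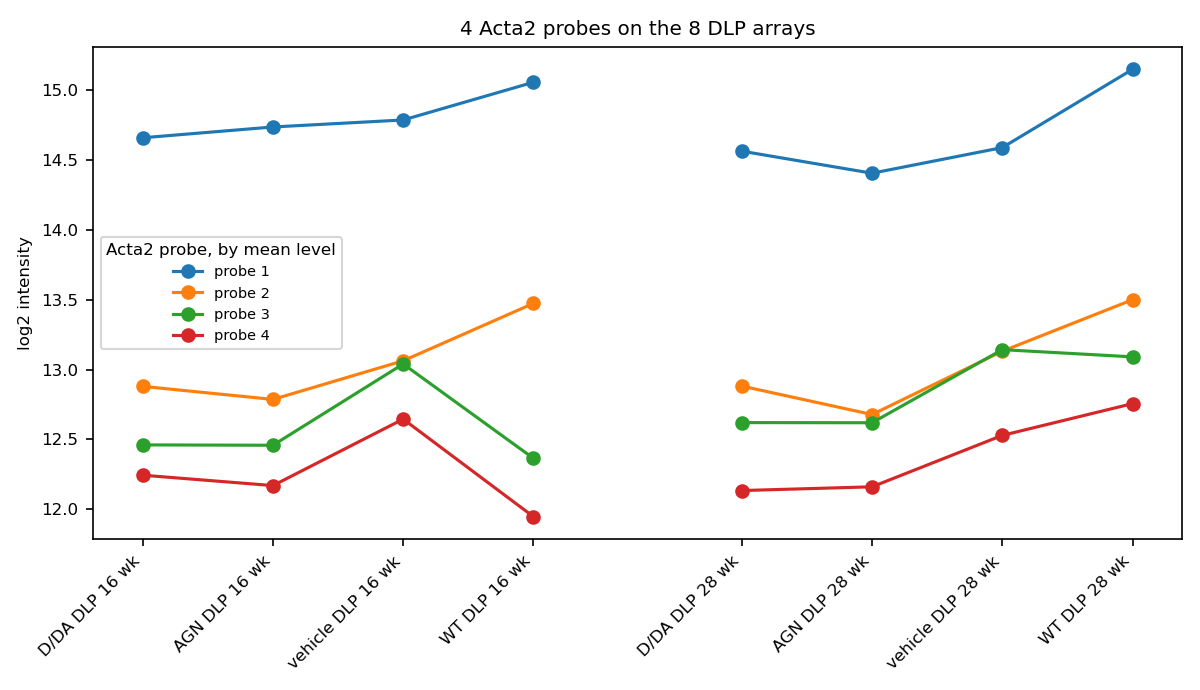
Log2 intensity of the 4 Acta2 probes on the 8 DLP arrays, ordered by treatment within each age, with probes numbered by mean level. Probes 1 and 2 are highest in wild-type DLP at both ages, and probes 3 and 4 are lowest in wild-type DLP at 16 weeks.

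Genes of the other lists were called in TRAMP DLP against wild-type DLP as well, where 12.5% of all probes were called. Of the 25 partner genes 4 fell, with Pdlim3 at -1.01 ± 0.25, Csrp1 at -0.75 ± 0.13, the caveolin gene Cav1 at -0.58 ± 0.13 and Tpm2 at -0.57 ± 0.13, of whose 3 probes 1 had the opposite sign. Of the 19 calcium and cGMP genes 5 fell, among them Atp2a2 (-0.56 ± 0.12) and Mrvi1 (-0.41 ± 0.10). Of the 9 receptor genes 3 fell: P2rx1, with 615, 602 and 682 in D/DA, AGN and vehicle DLP at 16 weeks against 1083 in wild-type DLP and 536, 499 and 687 against 1281 at 28 weeks (-0.98 ± 0.12), the prostaglandin receptor gene Ptger3 (-0.54 ± 0.08) and Chrm3 (-0.31 ± 0.07).

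Among the transcription factors, Myocd fell on its main probe (-0.64 ± 0.11, limma adjusted p = 0.0056), with 331, 339 and 333 in D/DA, AGN and vehicle DLP at 16 weeks against 608 in wild-type DLP and 303, 314 and 288 against 402 at 28 weeks, while its other 2 probes had the opposite sign. Klf5, a zinc finger factor made by both epithelium and smooth muscle, rose (1.44 ± 0.10, limma adjusted p = 0.000108), with 3301 to 4005 in the 6 TRAMP DLP against 1309 and 1497 in the 2 wild-type DLP. Basal or myoepithelial markers fell for 4 of 8 and rose for 1, with a median log2 difference of -0.54, beside -0.58 for the contractile genes. Endothelial markers fell for 6 of 11, with a median of -0.48, and fibroblast markers for 3 of 14, and 1 pericyte marker rose and 2 fell of 10. Seminal vesicle markers fell for 3 of 7, with a median of -0.34. Their part in the result was not tested.

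The treatments were compared at matched ages as 3 pairs, D/DA against vehicle, AGN against vehicle, and D/DA against AGN, with p-values adjusted over all probes within each pair. D/DA and AGN differ in that D/DA holds the pyranocoumarins and AGN the whole root extract. None of the 10 genes passed in any pair, and limma called 0.0% of all probes in each.

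In D/DA against vehicle DLP all 10 genes were below 0, from -0.44 ± 0.22 for Actg2 to -0.05 ± 0.16 for Synm. At an unadjusted p under 0.05 there were 2 genes, Smtn (-0.33 ± 0.14) and Mylk (-0.39 ± 0.17), with limma adjusted p of 0.582 and 0.592, and 8.39% of all probes. In AGN against vehicle DLP all 10 were below 0 too, from -0.46 ± 0.22 for Actg2 to -0.01 ± 0.15 for Myh11, with 0 genes and 4.55% of all probes at an unadjusted p under 0.05. These comparisons share the vehicle arrays. The median of the set was -0.17 for D/DA and -0.18 for AGN, against 0.04 and 0.02 over all probes. Age by age, 34.5% and 36.5% of all probes were below 0 for D/DA, and 39.2% and 48.2% for AGN. The sign was not particular to the set: fibroblast markers were below 0 for 13 and 14 of 14, with medians of -0.34 and -0.35. Skeletal muscle markers were below 0 for 12 and 2 of 20. Over the 10 genes the 95% intervals ran from -0.94 to 0.31 for D/DA and from -0.96 to 0.33 for AGN.

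In D/DA against AGN DLP the differences ranged from -0.14 ± 0.14 for Smtn to 0.15 ± 0.18 for Tagln, with 4 genes below 0 and 6 above, and 0 at an unadjusted p under 0.05. The intervals ran from -0.48 to 0.55, so differences of that size between the extract and its pyranocoumarins were not excluded. The AGN effect in NECa was also set against that in DLP in 1 fit of all 16 arrays. None of the 10 genes differed, with estimates from -0.33 for Des to 0.56 for Mylk and intervals as wide as -3.11 to 3.95 for Actg2, where 0.0156% of all probes were called, and 0 had an unadjusted p under 0.05.

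Age gave no call either. Between 28 and 16 weeks, over all 4 DLP groups, 9 of the 10 genes were below 0 and Tagln was at 0.08, and 0 passed, where 0.0778% of all probes did. At an unadjusted p under 0.05 there was 1 gene, and 8.82% of all probes. Smtn had the largest difference (-0.24 ± 0.10, limma adjusted p = 0.529). By treatment, with 1 array per age, 28 minus 16 weeks had a median of -0.26 in D/DA DLP with 10 genes below 0, -0.22 in AGN DLP with 8, and -0.21 in vehicle DLP with 9. In wild-type DLP the median was 0.12 and 2 genes were below 0. A test of that difference, also chosen after the values were seen, set the age effect in TRAMP DLP against the one in wild-type DLP. All 10 genes were below 0 in it, with a median of -0.31, but none passed, where 2.04% of all probes did. At an unadjusted p under 0.05 there were 3 genes, Actg2, Des and Cnn1, and 14.6% of all probes. Without the vehicle DLP of either age 3 genes passed, Actg2 (-0.93), Des (-0.65) and Mylk (-0.56), in fits with 1 residual degree of freedom. With the skeletal muscle level as a covariate none passed and 6 of the 10 stayed below 0, while Myh11 (0.11), Smtn (0.25), Synm (1.53) and Lmod1 (0.21) turned above it. That fit too had 1 residual degree of freedom. Its covariate fell with age in every TRAMP treatment and rose in wild type, so the fit cannot separate the covariate from this difference.

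Finally, whole prostate and dissected lobes of wild-type mice were compared. None of the 10 genes passed, where 7.2% of all probes did, and 0 had an unadjusted p under 0.05. The intervals were wide because the spread came from all 16 arrays. The differences ran from -0.10 ± 0.81 for Des to 1.06 ± 0.64 for Synm, for which the whole prostates had 4534 and 4155 and the DLP 2108 and 2063. Synm probe 2 went the other way, with 784 and 814 in whole prostate against 1059 and 1211 in DLP (-0.50 ± 0.28). For 5 genes the whole prostates lay above both DLP arrays, as they did for 33.9% of all probes. Mylk was 1 of them, with 13815 and 12923 in whole prostate against 9581 and 10568 in DLP. Among the listed genes Pgm5 (0.84 ± 0.24, limma adjusted p = 0.0402) and the cGMP-dependent kinase gene Prkg1 (0.28 ± 0.06, limma adjusted p = 0.0125) were higher in whole prostate.

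By the group means of the main probes, all 10 genes were highest in whole prostate or DLP of wild-type mice. TRAMP DLP came next and NECa last, with the wild-type tissues not separated by the test. Other probes did not all keep this order. Acta2 probe 3 had 6478 and 5978 in whole prostate and 5624 to 9041 in TRAMP DLP. Synm probe 2 had 784 and 814 in whole prostate and 758 to 1102 in TRAMP DLP. The 10 genes also moved together from array to array. Over the 16 arrays, which share the tissue classes, the 45 pairs had a median Pearson r of 0.954, from 0.722 for Actg2 with Cnn1 to 0.994 for Myh11 with Mylk. Within the 6 NECa the median was 0.938 and the lowest 0.125, for Tagln with Cnn1, and within the 8 DLP it was 0.903, with 0.468 for Tagln with Synm as the lowest.

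Among 9049 other genes with a mean above the median of all probes, the pattern most like the mean of the set over 16 arrays was that of Tpm1 (r = 0.989). Next were Pdlim3 (0.985), the matrix proteoglycan gene Dcn (0.982), the glutathione transferase gene Gstm1 (0.981), the matrix protein gene Prelp (0.981), Ecm1 (0.977), Tpm2 (0.977), Nacc2 (0.975), Mrvi1 (0.974) and Lims2 (0.973). Dcn, a fibroblast product, had 1346, 1949.8 and 545 in AGN NECa, 4825, 403 and 397 in vehicle NECa, and 9191 and 9122 in wild-type prostate. Over the 8 DLP arrays the nearest were other genes: Ssr3 (0.994), Ppm1b (0.992), Sec61b (0.989), Grb10 (0.989) and Tmem230 (0.986), of which Ssr3 and Sec61b encode parts of the protein translocation machinery of the endoplasmic reticulum.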

How the data were processed

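RNA of 16 mouse prostate and carcinoma samples was labelled with biotin as cRNA and hybridised to Illumina bead arrays, per the labels' protocols. The authors deposited linear, normalized probe intensities for 25697 probes, made with lumi per the submitters' processing notes. Its version, the normalization method and any background correction are not given in the sources used here. Array minima were 113 to 139, medians 151 to 166 and maxima 20502 to 69911, so the background had not been brought to 0 and differences of dim genes are understated. Precision is limited by how few arrays each group holds. A table of values before normalization was left out, because its 32 value columns matched no sample label.

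Probes were named by the platform annotation, which gives 1 symbol for 23978 probes, several for 0 and none for 1719, and 23962 matched the RefSeq gene table of GRCm38.p6 by Entrez identifier. The log2 of each intensity entered limma 3.58.1 under R 4.3.3 (lmFit, eBayes with an intensity trend), two-sided, on the groups given by the labels: carcinomas and wild-type prostate in 1 fit, the 6 carcinomas in another, the 8 DLP arrays with treatment and age as additive terms, and all 16 arrays in 5 classes for comparisons between tissues. No filter was set on low values. The fits were also run on simulated data whose noise was independent between probes and capped in spread. That run does not measure how the fits behave for genes that vary as much, and as jointly, as these in the carcinomas. Alternatives were quantile normalization, median centring, normexp background correction, no intensity trend, bright probes only, the mean of a gene's probes, array weights (limma's estimate converged for DLP but not for fits with carcinomas), a replicate block, a skeletal muscle covariate, a fit of all arrays, and each array left out.

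All 10 genes are named in each comparison. From the partner, calcium and cGMP, receptor and transcription factor lists, up to 4 called genes with the largest change per comparison are named, or the one with the smallest p where none was called. The most similar genes are the 10 with the highest r over 16 arrays and the 5 over DLP arrays. The genes and lists were chosen with earlier results of these data known, and 2 comparisons of TRAMP with wild-type DLP were added after these values were seen.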

Additional observations from a re-analysis of the deposited data

Results flagged for a closer look

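In 7 of the 10 genes every TRAMP treatment was lower at 28 than at 16 weeks of age in DLP while the wild-type DLP was higher, with 1 array for each treatment and age. The share of all probes with this pattern is not given, and all 7 genes rest on the same wild-type arrays. The age effect in TRAMP DLP minus that in wild-type DLP was -0.786 for Actg2, -0.709 for Des, -0.454 for Mylk, -0.389 for Myh11, -0.327 for Smtn, -0.301 for Acta2 and -0.293 for Cnn1 on the log2 scale. The limma adjusted p of these differences was 0.13, 0.111, 0.37, 0.377, 0.446, 0.433 and 0.29, so none passed the test. Actg2 shows the pattern at its largest: 28 minus 16 weeks was -0.69 in D/DA DLP, -0.43 in AGN DLP and -0.14 in vehicle DLP, against 0.37 in wild-type DLP. For Des the same differences were -0.14, -0.28 and -0.38, against 0.45 in wild-type DLP.

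The skeletal muscle level of the arrays moved the same way. Its mean log2 value at 16 and 28 weeks was 10.13 and 9.39 in D/DA DLP, 10.58 and 9.97 in AGN DLP, 10.57 and 8.98 in vehicle DLP, and 8.21 and 10.67 in wild-type DLP, and 17 of 20 skeletal muscle markers had a called difference in the age effect. With that level as a covariate the median of the 10 genes was -0.225, against -0.314 without it, none passed, and of the 7 genes above Myh11 (0.11) and Smtn (0.25) turned above 0. Among the other lists, Pdlim3 (-1.27 ± 0.23, limma adjusted p = 0.0195), Sgca (-0.62 ± 0.13, limma adjusted p = 0.0353), Ppp1r14a (-0.66 ± 0.14, limma adjusted p = 0.0344) and Mef2c (-0.96 ± 0.16, limma adjusted p = 0.0113) passed the same test as lower and Agtr1a (1.51 ± 0.24, limma adjusted p = 0.0097) as higher. With the skeletal muscle level as a covariate Sgca turned to 0.076 and Mef2c to 0.014, Pdlim3 (-2.04) and Ppp1r14a (-1.29) lost their call, and Agtr1a (3.19) kept it. The fit with this covariate had 1 residual degree of freedom. The covariate fell with age in every TRAMP treatment and rose in wild type, so that fit cannot separate it from the difference in age effects. Probe 4 of Acta2 (-0.89 ± 0.18, limma adjusted p = 0.034) and probe 3 of Smtn (-0.71 ± 0.14, limma adjusted p = 0.0288) passed, unlike the main probes of these genes.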

How the results depend on the processing

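The 10 genes stayed below 0 under all 14 usable alternatives in AGN NECa and in vehicle NECa against wild-type prostate, with 8 to 10 called in AGN NECa and 7 to 10 in vehicle NECa, except that with the skeletal muscle level as a covariate 2 were called in each. Cnn1 and Lmod1 kept their call under every alternative. Normexp background correction shifted the median of all probes to -0.21 in AGN NECa and -0.20 in vehicle NECa, where that of the 10 genes was -3.71 and -3.59. Against TRAMP DLP all 10 were called throughout. Array weights did not converge in any fit with carcinomas, so those values are void. In AGN against vehicle NECa they gave 2 calls, with nearly all weight of the vehicle group on 1 array. The labels do not say whether the replicate numbers of the carcinomas pair the samples. Arrays of the same number had correlations of -0.03, -0.23 and 0.16, with 1 of 3 samples closest to its own number. So few arrays cannot decide whether they were paired. With a replicate block 10, 10 and 0 genes were called in the 3 carcinoma comparisons. In DLP age was a term of the fit, so treatments were compared within age, and no block on replicate number could be added with 1 array for each treatment and age. In vehicle DLP against wild-type DLP 2 genes were called without the intensity trend, on bright probes only and with the mean of a gene's probes, 8 with the skeletal muscle level, and 0 to 7 when an array was left out. For TRAMP DLP of 3 treatments, 5 were called with quantile normalization, 5 with array weights, 2 in the fit of all 16 arrays, and 3 to 9 when an array was left out. For the difference in age effects, 0 to 3 were called when an array was left out, 3 without the vehicle DLP of either age. Signs turned for Acta2 in vehicle DLP with quantile normalization (0.025), Tpm2 in TRAMP DLP with the mean of its probes (0.06), and, with the skeletal muscle level, Mef2c in AGN NECa (0.313) and Sgca (0.076) and Mef2c (0.014) in the difference of age effects. Where no gene was called, signs turned in 28 of 140 values for AGN against vehicle NECa and in 22 of 170 for D/DA against AGN DLP. The causes were not tested.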
